A study of Mus musculus with 4 samples.

Results

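Axon guidance ligands and receptors were compared between the part of the mouse left hemi-diaphragm that holds the nerve-muscle synapses and the part that does not. The members were the probe sets whose single gene symbol in the platform annotation belongs, by its name, to the ephrins, the Eph receptors, the semaphorins, the plexins, the neuropilins, the Slits, the Robos, the netrins or the netrin receptors Dcc, Neo1 and Unc5. This gave 166 of 45101 probe sets on the array, for 73 genes, and not every Eph receptor is analysed here. RNA was measured on 4 one-colour arrays, 2 per region. The labels give the tissue, the side and the region and name no strain, age, genotype or treatment. Whether each array stands for its own animal is not said, and the spread behind every p-value may therefore be technical.

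Guidance molecules steer growing axons by attraction or repulsion, and many of them also act in vessels, immune cells and adult tissue. Ephrins are membrane-bound ligands of the Eph receptor tyrosine kinases, and in developing limbs ephrin-A and EphA proteins sort motor axons to their muscles. Semaphorins signal through plexins, and the secreted class 3 semaphorins mostly need a neuropilin as co-receptor. Slits signal through Robo receptors, and netrins attract through Dcc and Neo1 and repel through Unc5 receptors. In adult muscle such transcripts can come from fibres, vessels, connective tissue or the Schwann cells of the nerve, while the cell bodies of motor neurons lie outside the tissue.

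Levels are given as log2 of the deposited intensity, which had already been brought to a common level across arrays, with a floor at 7.31. A probe set was tested when its mean log2 value over the 4 arrays reached 8.79. Brightness differs between probe sets for technical reasons, so levels are compared only between arrays and not between genes. The region labels were checked first. Chrne, a subunit of the adult muscle acetylcholine receptor, lay at 12.64 and 11.76 in the synaptic arrays and at 10.00 and 8.19 in the non-synaptic arrays. Chrna1, the alpha subunit, and Ache, the acetylcholinesterase, had differences, synaptic minus non-synaptic, of 1.97 ± 0.19 and 2.58 ± 0.23 (SE of limma's fit, n = 2 arrays per region), which did not pass (adjusted p = 0.200 and 0.167). The difference of Chrne, 3.11 ± 0.66, did not pass either (limma adjusted p = 0.9999). The regions did not overlap for any of these 3 genes, but they did for the other 2 tested genes of the check. Musk, the receptor kinase that organises the synapse, was at 10.53 and 11.22 against 10.72 and 10.48, and Rapsn, which clusters the receptor, at 11.88 and 11.57 against 11.89 and 11.55. All 10 muscle fibre markers were above the filter, with a median difference of 0.01, and 1 of them had the regions apart. This was Myh4, the myosin of the fastest fibres, named after its values were seen, at 14.97 and 15.30 in the synaptic and 16.39 and 16.52 in the non-synaptic arrays (limma adjusted p = 0.499). Schwann cell markers moved with the region: Mbp, the myelin basic protein, was higher by 3.50 ± 0.17 (limma adjusted p = 0.0325), 9 of 10 tested had both synaptic arrays above both others, and their summed intensity was 108709 and 118746 in the synaptic against 36149 and 37579 in the non-synaptic arrays. Of 4 tested perineurium markers all 4 were set apart in the same way, at summed intensities of 5432 and 5619 against 3826 and 2904. Of 7 tested fat cell markers 5 had both synaptic arrays below both others. Adipoq, the fat hormone adiponectin, was lower in the synaptic arrays, with a log2 difference of -5.43 ± 0.26 (limma adjusted p = 0.0325), and Ucp1 and Pck1 lay between 10.96 and 12.63 in the non-synaptic arrays and at the floor in the synaptic ones. The summed intensity of the list, to which Fabp4, Lpl and Plin4 gave most, overlapped at 338716 and 274189 against 333391 and 318969. Of 10 axon and neuron markers only Stmn2 passed the filter, at a difference of -0.02. The part of these cell types in the values below was not tested, and a smaller number of cells cannot be told apart from less RNA per cell.

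The titles number the arrays of each region 1 and 2, and the arrays stood apart by that number more than by region. Over the 97 guidance probe sets tested, the median absolute log2 difference was 0.27 between both arrays numbered 1 and 0.21 between both numbered 2, against 0.41 between the 2 synaptic and 0.32 between the 2 non-synaptic arrays. Both arrays numbered 2 lay above both arrays numbered 1 for 40 guidance probe sets (41.2%) and below them for 14 (14.4%). The same held for 32.9% and 28.1% of all tested probe sets. The largest such difference was 3.01, for a second probe set of the netrin Ntn4, which was at the floor on both arrays numbered 1 and at 10.08 and 10.57 on the synaptic and non-synaptic arrays numbered 2.

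**Figure D1:**
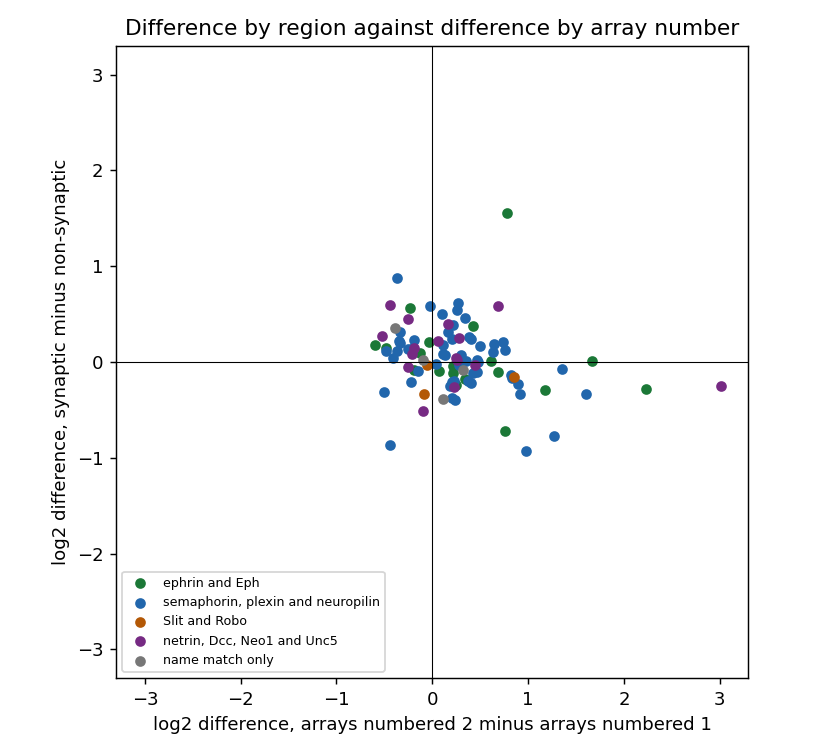
Each point is 1 of the 97 tested guidance probe sets, with its log2 difference between arrays numbered 2 and 1 on the horizontal axis and its log2 difference between synaptic and non-synaptic arrays on the vertical axis, coloured by pathway. The points spread more widely by number (up to 3.01) than by region (from -0.93 to 1.56).

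No guidance ligand or receptor passed the test between the regions. The synaptic genes Chrne, Chrna1 and Ache did not pass it either, so a gene that does not pass is not shown to be equal between regions. Of the 73 genes 54 had at least 1 tested probe set, and 0 of the 97 tested probe sets passed limma's test at an adjusted p under 0.05, against 0.0111% of all 27026 probe sets tested. An unadjusted limma p under 0.05 was reached by 0 in the higher and 0 in the lower direction, where all tested probe sets gave 0.666% and 0.333%. With the array number as a block, some reached it in each direction, as given at the end, and 0 passed the adjusted threshold. The errors and intervals by gene come from the fit without that block. In the fit without it, the smallest unadjusted p was 0.0579, for Efna2, and the smallest adjusted p was 0.9999. With 2 arrays per region, an exact permutation test gives no p below 0.333, and none was used. Differences ran from -0.93 to 1.56 with a median of 0.02, beside -0.01 over all tested probe sets. Of the 97, 53 were above 0 (54.6%, beside 47.7% of all tested probe sets) and 44 below. The regions were apart, without overlap, with the synaptic arrays above in 15 of the 97 (10.0% of all tested probe sets) and below in 7 (10.0% of all). With 1 probe set per gene, the brightest, the regions were apart with the synaptic arrays above for 11 of the 54 genes and below for 2, where all 12553 tested genes gave 1352 and 1243. The 95% interval of the difference lay within 2-fold in both directions for 48 of the 97 (49.5%), beside 58.8% of all tested probe sets. For the rest of the 97 this fit, which does not use the array number, does not bound the difference that closely.

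**Figure D2:**
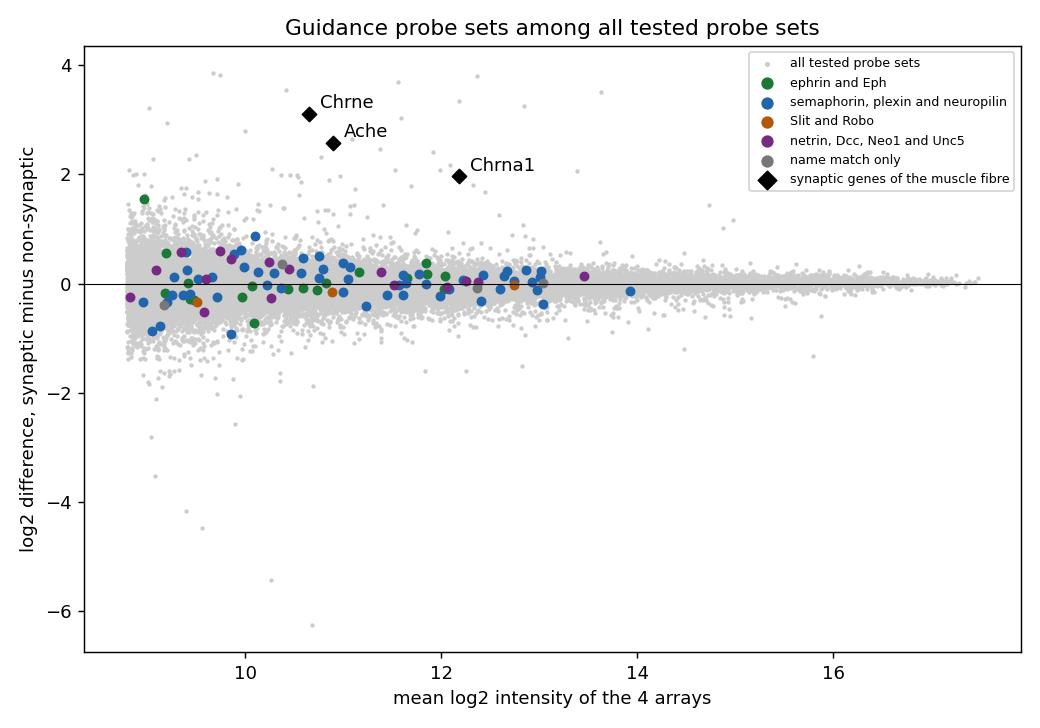
Log2 difference, synaptic minus non-synaptic, against the mean log2 intensity of the 4 arrays, for all 27026 tested probe sets (grey), the 97 guidance probe sets (coloured by pathway) and 3 synaptic genes of the muscle fibre (diamonds). The guidance probe sets lie between -0.93 and 1.56, while Chrne, Ache and Chrna1 lie at 3.11, 2.58 and 1.97.

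Of the 8 ephrin genes 6 were tested, and all but 1 of their 12 probe sets differed by less than 2-fold. Efna2, a GPI-anchored ligand of EphA receptors, had the largest difference of any tested guidance probe set. Its synaptic arrays were at 9.83 and 9.65, and its non-synaptic arrays were at the floor of 7.31 and at 9.06. The non-synaptic mean of 8.18 lay below the filter level of 8.79, so Efna2 was tested only through its higher synaptic mean of 9.74. The regions did not overlap, but the size rested on the array at the floor: it was 1.56 ± 0.64 (SE, n = 2 per region) with a 95% interval from -0.07 to 3.19, and became 0.68 without non-synaptic replicate 1 and 2.44 without non-synaptic replicate 2. A second probe set of Efna2 lay just below the filter, at a mean of 8.67, and had the regions apart the other way. It was at 8.56 and 8.51 in the synaptic and at 9.01 and 8.60 in the non-synaptic arrays. Efna1, which is also a ligand of EphA receptors, was at 11.25 and 11.27 against 11.09 and 11.01, a separation of 0.21 ± 0.21 (SE). Its second probe set went the other way, at -0.71 ± 0.48 (SE), with its lowest value, 9.07, on synaptic array 1. Efna5, known from the sorting of motor axons, was at 10.49 and 10.87 against 10.76 and 10.82, so the regions overlapped. The transmembrane ligands Efnb1 and Efnb2 overlapped on all 7 probe sets, with differences from -0.28 to 0.37. Efna4 differed by -0.18 with overlap, and Efna3 and Efnb3 lay below the filter.

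Most Eph receptors were not tested, since their signal was low. Of 12 receptor genes 5 were tested, and Epha1, Epha5, Epha6, Epha7, Epha8, Epha10 and Ephb3 lay below the filter. Epha4, a receptor for both ephrin classes that guides motor axons in the limb, was at 9.76 and 9.93 in the synaptic and 9.91 and 10.25 in the non-synaptic arrays, a difference of -0.24 ± 0.28 (SE, n = 2 per region). Its regions overlapped on both tested probe sets. Epha3 followed the array number: both arrays numbered 1 were at 10.46 and 10.58 and both numbered 2 at 11.20 and 11.06, with a region difference of 0.01 ± 0.35. Ephb6, a receptor whose kinase domain is inactive, was at 9.47 and 9.48 in the synaptic arrays and at 9.15 and 8.67 in the non-synaptic arrays. The regions did not overlap, and the difference of 0.56 ± 0.35 (SE, 95% interval -0.32 to 1.45) did not pass. Epha2 and Ephb1 differed by -0.08 and -0.04, with overlap.

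Semaphorins were the largest family, and their differences were balanced around 0. Of 20 genes 19 were tested on 32 probe sets, of which 16 were above 0 and 16 below, with a median of 0.01. Sema3e, a ligand of Plxnd1, lay below the filter. Among the secreted class 3, Sema3b was at 11.11 and 11.26 in the synaptic against 10.67 and 10.94 in the non-synaptic arrays, apart by 0.38 ± 0.23 (SE, 95% interval -0.21 to 0.98). Sema3a, a repellent of motor axons that acts through Nrp1, was at 10.01 and 9.42 against 9.79 and 9.41, so its regions overlapped. For Sema3f, which acts through Nrp2, 1 of 3 probe sets had both synaptic arrays below both others, at -0.40 ± 0.23, another gave -0.31 and the last 0.20, both with overlap. Sema3c differed by -0.11 and -0.16 on its tested probe sets, and Sema3g by -0.21, all with overlap. The probe sets of Sema3d gave 0.10 and -0.93, the latter the lowest value among the guidance probe sets, where synaptic array 1 was at 8.64 and the other 3 arrays lay between 10.08 and 10.55.

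Among the membrane-bound semaphorins, Sema4g had close values within each region while the regions stood apart. It was at 9.70 and 9.68 in the synaptic and at 9.12 and 9.09 in the non-synaptic arrays. Its difference of 0.58 ± 0.30 (SE, n = 2 per region) had a 95% interval from -0.17 to 1.34 and did not pass. Sema4c, a ligand of Plxnb2, was apart in the same direction by 0.31 ± 0.23, and so was the brighter probe set of Sema5a, a ligand of Plxnb3, by 0.23 ± 0.20, neither of which passed. Sema6b, a transmembrane ligand of Plxna4, had the lowest difference among the brightest probe sets of the 54 tested guidance genes. It was at 8.98 and 8.25 in the synaptic and at 9.55 and 9.41 in the non-synaptic arrays, apart by -0.86 ± 0.40 (SE, 95% interval -1.89 to 0.16), and did not pass. Its synaptic arrays averaged below the filter level of 8.79, so it was tested only through its higher non-synaptic arrays. Sema4d, a ligand of Plxnb1, overlapped on both probe sets, at -0.09 and -0.02. Sema4a, Sema4b, Sema5b, Sema6a, Sema6c, Sema6d and Sema7a had brightest-probe differences from -0.19 to 0.24, all with overlap. Further probe sets differed in sign for Sema6a, at -0.33 and -0.33, and for Sema6d, at -0.08, 0.21 and -0.21, also with overlap. Sema4f was at the floor on synaptic array 1 and at 10.18 on synaptic array 2, so its difference was -0.78 ± 0.95.

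**Figure D3:**
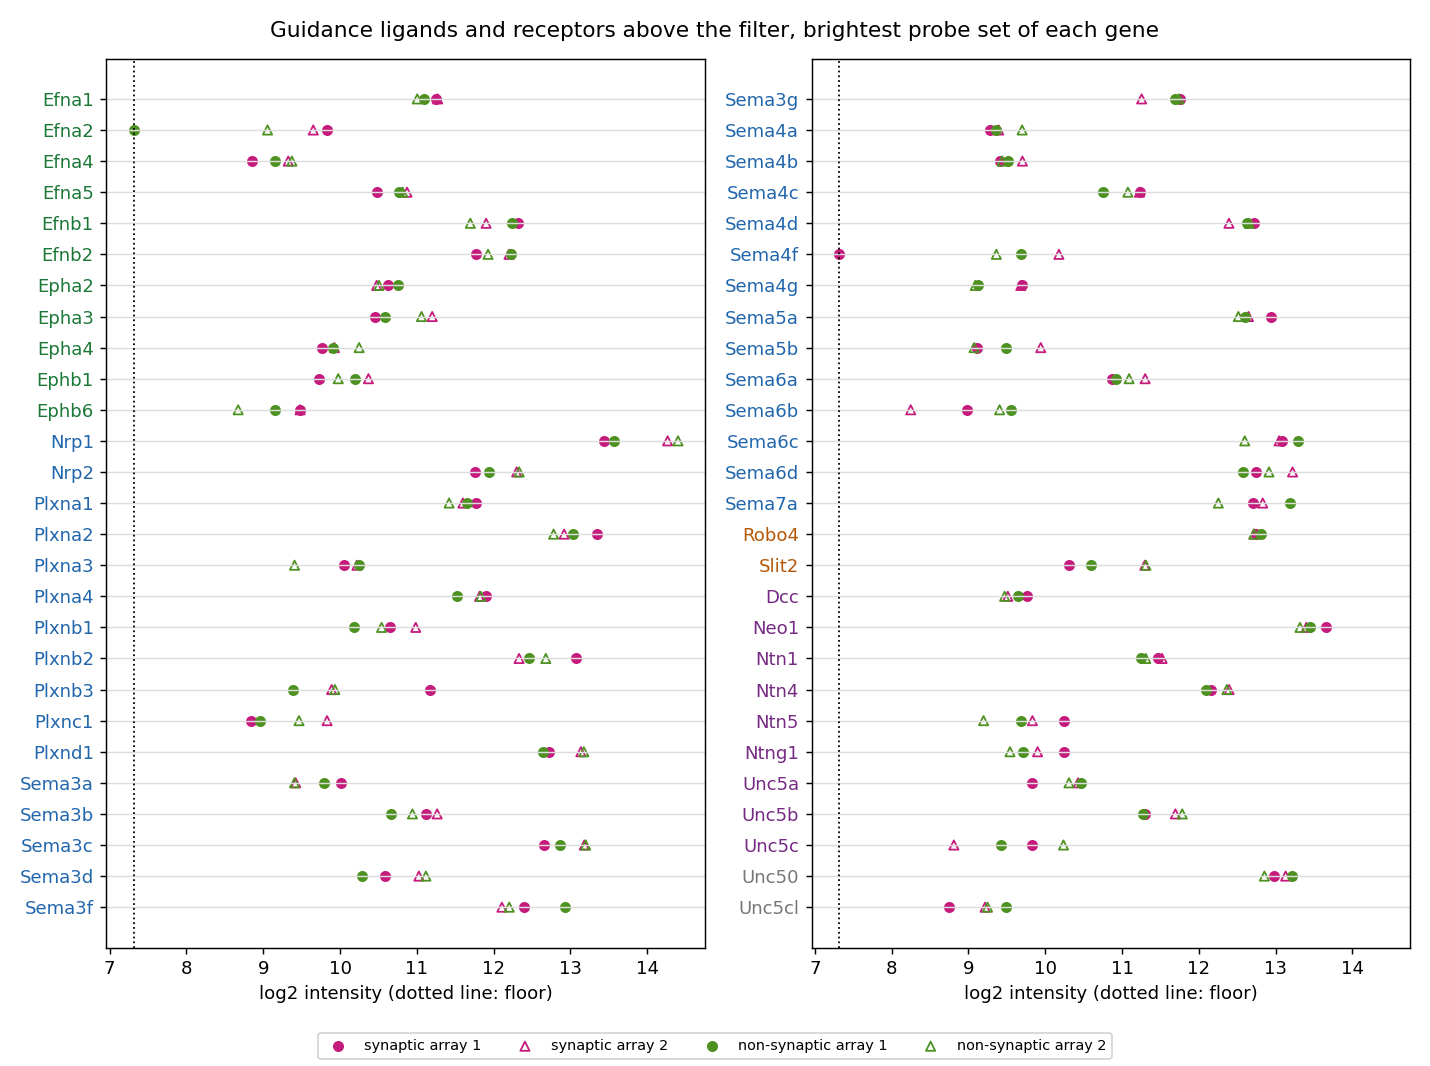
Log2 intensity on each of the 4 arrays (magenta, synaptic; green, non-synaptic; filled circles, arrays numbered 1; open triangles, arrays numbered 2) for the brightest probe set of the 54 tested genes, with gene names coloured by pathway. Magenta and green overlap for most genes, Sema4g and Ephb6 show the regions apart, and Nrp1 splits by array number.

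Plexins, the receptors of semaphorins, had most of their differences above 0 without any of them passing. All 9 plexin genes were tested, and 13 of their 15 probe sets were above 0, where 47.7% of all tested probe sets were. Their median was 0.18, beside -0.01 over all, and 4 had both synaptic arrays above both others while 2 had them below. The count above 0 was 12 without synaptic replicate 1, 11 without synaptic replicate 2, 10 without non-synaptic replicate 1 and 12 without non-synaptic replicate 2. Probe sets of 1 gene share a transcript and all of them share the same 4 arrays, so these counts are not independent and the probe sets are no replicates. The plexins were singled out after their values were seen. Plxnb1, the receptor of Sema4d, was the 1 gene of the 26 with several tested probe sets that kept the regions apart in the same direction on all of them. How often other genes on the array do so is not given here, so this does not set Plxnb1 apart from them. The brighter Plxnb1 probe set was at 10.66 and 10.99 in the synaptic and 10.18 and 10.54 in the non-synaptic arrays, and the other was at 10.04 and 10.26 against 9.46 and 9.75. The differences were 0.46 ± 0.27 and 0.54 ± 0.29 (SE, n = 2 per region), with 95% intervals from -0.23 to 1.15 and from -0.18 to 1.27.

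Plxnb3, the receptor of Sema5a, gave 0.87 ± 0.50 on its brighter probe set, where synaptic array 1 stood alone at 11.18 and the other 3 arrays were between 9.39 and 9.93. Its second probe set was at 9.96 and 10.56 against 9.67 and 9.61, apart by 0.62 ± 0.32 (SE, 95% interval -0.20 to 1.43). Plxna2, a receptor of class 6 semaphorins, gave 0.22, 0.07, -0.21 and 0.50 on 4 probe sets. The last 2 of these had the regions apart in opposite directions, so its probe sets disagreed. Plxna1, Plxna3, Plxna4, Plxnb2, Plxnc1 and Plxnd1 had brightest-probe differences from 0.02 to 0.31, all with overlap, and a second probe set of Plxna4 was apart the other way, at -0.25 ± 0.29. Plxnd1, known from vessels, was at 12.72 and 13.14 against 12.64 and 13.18.

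The neuropilins, co-receptors of class 3 semaphorins that also bind vascular growth factor, had no difference that passed the test. Nrp1 was at 13.44 and 14.27 in the synaptic and 13.57 and 14.40 in the non-synaptic arrays. It followed the array number, with a region difference of -0.13 ± 0.40 (SE, n = 2 per region, 95% interval -1.14 to 0.87). A second Nrp1 probe set had both synaptic arrays below both others, at 12.78 and 12.91 against 13.08 and 13.37, by -0.38 ± 0.20 (95% interval -0.88 to 0.12), while the other 2 gave -0.23 and 0.16 with overlap. The 4 probe sets of Nrp2 lay between -0.10 and 0.01.

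**Figure D4:**
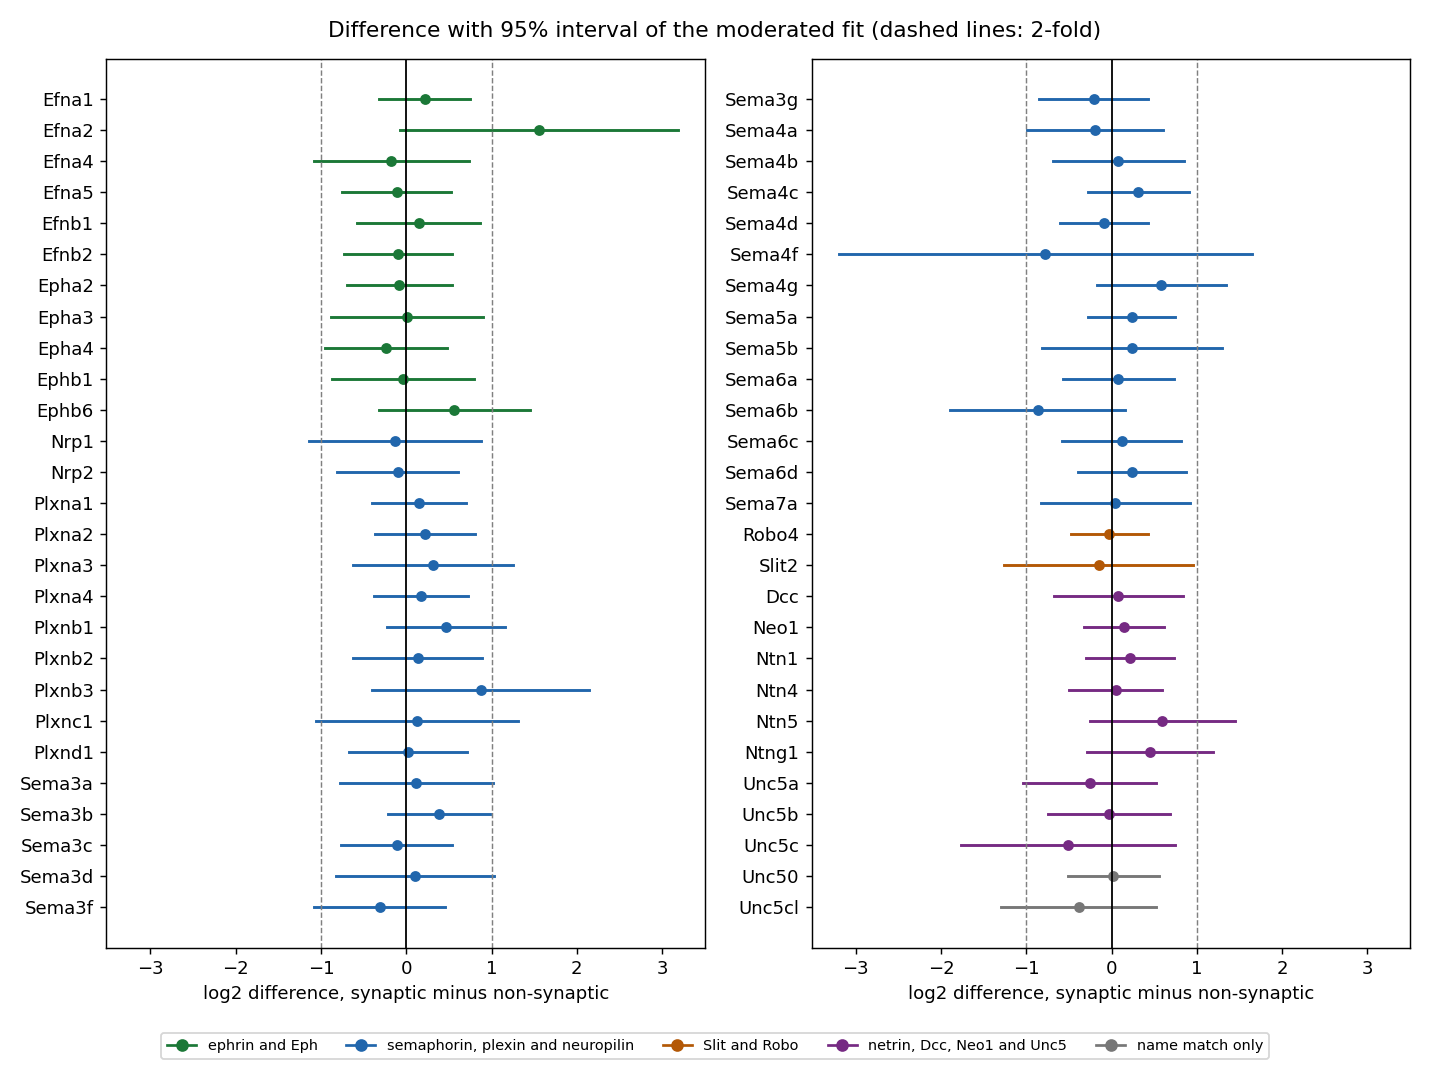
Log2 difference, synaptic minus non-synaptic, of the brightest probe set of the 54 tested guidance genes (points) with the 95% interval of the moderated fit (lines), coloured by pathway, and dashed lines at a 2-fold change. Every interval includes 0, and that of Efna2 reaches from -0.07 to 3.19.

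Slit and Robo genes were mostly below the filter. Of 7 genes only Slit2 and Robo4 were tested, and Slit1, Slit3, Robo1, Robo2 and Robo3 were not. Slit2, a repellent of many axons, was at 10.31 and 11.30 in the synaptic and 10.60 and 11.31 in the non-synaptic arrays, an overlap with a difference of -0.15 ± 0.44 (SE). A second Slit2 probe set had the regions apart, at 9.44 and 9.24 against 9.66 and 9.68, by -0.33 ± 0.30. Robo4, the Robo of blood vessel endothelium, was at 12.74 and 12.72 against 12.81 and 12.72. Its difference of -0.03 ± 0.18 (SE, 95% interval -0.48 to 0.42) had the smallest SE of the 97 guidance probe sets.

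Of 4 netrin genes 3 were tested, with Ntn3 below the filter. Ntn1, the founding axon attractant of the family, was at 11.47 and 11.52 in the synaptic against 11.24 and 11.31 in the non-synaptic arrays, a separation of 0.22 ± 0.20 (SE) that did not pass. Ntn5 was at 10.24 and 9.83 against 9.68 and 9.20. The regions did not overlap, and the difference of 0.60 ± 0.34 (SE, 95% interval -0.25 to 1.45) did not pass. Ntn4, a netrin of basement membranes, was at 12.16 and 12.39 against 12.10 and 12.36 on its brighter probe set. Ntng1, a membrane-anchored netrin-G that does not bind Dcc, was at 10.25 and 9.90 against 9.71 and 9.54, apart by 0.45 ± 0.29, and Ntng2 lay below the filter.

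Of the netrin receptors, Neo1, which also binds repulsive guidance molecules, was at 13.65 and 13.40 in the synaptic and 13.44 and 13.32 in the non-synaptic arrays, a difference of 0.15 ± 0.19 (SE, 95% interval -0.33 to 0.62) with overlap. Its 5 tested probe sets ran from -0.05 to 0.39, and 1 of them had the regions apart. Dcc, known mainly from neurons, was at 9.77 and 9.51 against 9.65 and 9.47 on 1 probe set and at the floor on all 4 arrays on the other 2. Unc5a and Unc5c differed by -0.26 ± 0.31 and -0.51 ± 0.49, and Unc5b, known from vessels, by -0.03 ± 0.28 on its brighter probe set and 0.58 ± 0.45 on the other, all with overlap. Unc5d lay below the filter. The rule on names also took in 5 probe sets of Unc50, Unc5cl and Plxna4os1, which are no guidance ligands or receptors. Unc50 was at 12.97 and 13.13 against 13.21 and 12.85 on its brightest probe set and differed by -0.08 and 0.36 on the others, Unc5cl was apart by -0.38 ± 0.36 and Plxna4os1 was not tested, and without these genes the regions stayed apart for 15 higher and 6 lower of 93 tested probe sets.

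Promoters are shown because the N-box, the letters CCGGAA bound by ETS factors, is the best known element of synapse-specific transcription, and Chrne carries it. RefSeq windows of GRCm38.p6, from 250 bases before to 50 after the annotated start, were found for 62 of the 73 genes. On either strand the N-box was in 7 of their 78 windows (8.97%), against 14.9% of the 32851 windows of all genes. The E-box CANNTG, the site of myogenic factors, was in 39 of the 78 windows, against 72.3% of all, and the search allowed overlap between motifs. Of the guidance genes described above with a tested probe set apart in the synaptic direction, Plxnb1 and Ephb6 held the N-box, while the windows of Efna1, Efna2, Neo1, Ntn5, Ntng1, Plxna2, Plxnb3, Sema4c, Sema4g and Sema5a did not. Ntn1 and Sema3b, also apart in that direction, had no window and could not be searched. The rest of the N-box windows belonged to Sema3d, Sema4a, Sema4b, Unc5b and the name match Unc50. None of these genes had a tested probe set apart in the synaptic direction. The windows of Chrne, Plxnb1 and Ephb6, the latter pair chosen after their values were seen, are printed 5′ to 3′ on the gene's strand with the N-box in capitals, in Chrne beginning 76 bases before the start, in Ephb6 83 bases before it, and in Plxnb1 in 2 copies, the first 150 bases before it and the second on the opposite strand. A match is a description of the letters and not a shown site.
Chrne, chr11:70619145-70619444, minus strand: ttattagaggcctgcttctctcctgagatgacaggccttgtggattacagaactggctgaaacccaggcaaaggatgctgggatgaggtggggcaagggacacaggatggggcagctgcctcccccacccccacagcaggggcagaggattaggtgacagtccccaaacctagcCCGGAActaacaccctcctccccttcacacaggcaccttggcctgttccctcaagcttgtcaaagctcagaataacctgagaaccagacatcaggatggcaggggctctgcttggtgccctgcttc
Plxnb1, chr9:109095186-109095485, plus strand: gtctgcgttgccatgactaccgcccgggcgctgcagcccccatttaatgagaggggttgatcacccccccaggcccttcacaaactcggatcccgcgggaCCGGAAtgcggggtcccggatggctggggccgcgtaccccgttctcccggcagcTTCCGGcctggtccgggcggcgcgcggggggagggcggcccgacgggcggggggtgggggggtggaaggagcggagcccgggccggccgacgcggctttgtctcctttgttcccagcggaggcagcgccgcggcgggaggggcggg
Ephb6, chr6:41605261-41605560, plus strand: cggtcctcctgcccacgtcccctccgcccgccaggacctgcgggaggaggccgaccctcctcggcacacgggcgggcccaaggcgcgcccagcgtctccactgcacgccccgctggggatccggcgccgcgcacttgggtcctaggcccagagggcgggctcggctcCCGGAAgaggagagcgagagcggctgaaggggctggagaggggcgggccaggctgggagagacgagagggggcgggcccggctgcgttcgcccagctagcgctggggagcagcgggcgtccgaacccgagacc

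None of the tested genes that carry guidance signals inside the cell passed either. Of 60 listed kinases, adaptors, GTPases and their regulators 54 were tested, and 0 passed limma's test, with 0 higher and 0 lower at an unadjusted p under 0.05. Their median difference was 0.01, and both synaptic arrays were above both others for 5 and below for 5, where all tested probe sets gave 10.0% in each direction. Src, a kinase downstream of several guidance receptors, was at 9.91 and 10.12 in the synaptic and 9.45 and 8.57 in the non-synaptic arrays, and the 95% interval of its difference ran from -0.02 to 2.03. Tiam1, an activator of Rac, was apart by 0.50 ± 0.28, and the small GTPases Mras and Rras2 by -0.32 ± 0.22 and -0.27 ± 0.21. Of 31 listed names of other guidance cues and adhesion partners 22 were tested, with a median of 0.02. The list holds synonyms: Rgmc and Hfe2 are names of Hjv, and Cxcr7 of Ackr3, so it has fewer genes than names. Of the 22 tested, 0 passed the adjusted threshold, and 2 were higher at an unadjusted limma p under 0.05, where 0.666% of all tested probe sets were. These were Nrcam, an adhesion molecule of the node of Ranvier, at 1.11 ± 0.35, and Mag, a myelin protein that is also in the Schwann cell list, at 0.68 ± 0.24, both named after their values were seen.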

How the data were processed

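The authors deposited a table with 1 linear intensity per probe set and array. How it was summarised is not given in the sources used here. Its columns share a 2% trimmed mean of 2500.0, and this scaling was kept. Intensities under 158.9, the 20th percentile of the table, were set to that floor before log2 was taken, and control probe sets and those with a mean log2 value under the 40th percentile of such means (8.79) were left out, leaving 27026. Arrays have no read depth, and their number limits the precision.

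The comparison between regions used limma 3.58.1 in R 4.3.3 (lmFit, eBayes with an intensity trend, 2-sided, Benjamini-Hochberg over all tested probe sets), with 2 residual and 3.18 prior degrees of freedom. Errors are moderated standard errors. Each gene was read from its brightest probe set, and other tested probe sets of a gene are given for most genes that have them. All 73 member symbols matched RefSeq by Entrez identifier. The naming rule asked for full array values of members past an unadjusted p of 0.05, of members apart by at least 0.5, and of the 3 brightest. Array values of further members were added after their values were seen, to show each family. The members and gene lists were chosen with earlier results of these data known. Alternatives covered normalization, filter, floor, variance model, array number as a block and leaving out each array. The fit was tested on simulated data.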

Additional observations from a re-analysis of the deposited data

How the results depend on the processing

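Under every alternative run, 0 guidance probe sets passed limma's test at an adjusted p under 0.05, and the smallest adjusted p of a gene was 0.485. The medians moved by less than the spread between arrays (0.24), from 0.02 to 0.05 for probe sets and 0.03 to 0.10 for genes while all arrays were used. Leaving out each array in turn gave medians from -0.11 to 0.17 for probe sets and -0.01 to 0.15 for genes. At an unadjusted limma p under 0.05, the count higher was 2 when no filter was set and 1 each under median centring, a floor at the 40th percentile and a fit that left out the intensity trend, and the count lower was 1 with no filter and 1 with no trend. Dropping single arrays moved these counts between 0 and 2 higher and between 0 and 3 lower. For the counts of this paragraph, the shares of all tested probe sets in the same settings are not given here. The counts show how far the guidance results moved and do not set them against other genes. Probe sets with the regions apart numbered 8 higher and 3 lower of 61 with the filter at the 60th percentile, 11 lower with median centring, and 12 lower of 166 without a filter. Leaving out each array gave 30 to 39 higher and 15 to 40 lower, where 2 arrays face 1 and separation is easier. Of the 54 genes 20 kept the sign of their difference in every setting in which they were tested, among them Efna2, Ephb6, Ntn5, Plxnb1, Plxnb3, Sema4g and Sema6b, and 34 changed it in some. The plexin count above 0 was 8 of 9 with the filter at the 60th percentile. Some settings leave fewer probe sets or arrays, and the cause of these changes was not tested.

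The array numbers are not stated to mark a shared animal or batch, and 2 pairs cannot settle it. Deviations from the region means correlated at 0.62 between same-numbered arrays over all tested probe sets. With the replicate number as a block, 4 of 97 guidance probe sets were higher and 5 lower at an unadjusted limma p under 0.05 (2.64% and 3.70% of all tested probe sets in the same fit), 0 passed the adjusted threshold, and over all probe sets the calls went from 3 to 82. Those higher in the block fit were probe sets of Efna2, Plxna2, Plxnb1 and Plxnb3, and those lower were of Nrp1, Sema3d, Sema3f and Efna1. For Plxna2, Nrp1, Sema3d, Sema3f and Efna1, at least 1 other tested probe set had a difference of the opposite sign. The filter at the 40th percentile of all log2 values, the settings without the name matches and the plexin counts were chosen after seeing the data.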

Other observations

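Some guidance probe sets were at the floor on both arrays numbered 1 and above the filter level on both arrays numbered 2. This held for 3 of the 166, beside 118 of all probe sets, and the reverse for 0, beside 22. The 3 were 1 probe set of Ntn4, at 10.08 and 10.57 on the synaptic and non-synaptic arrays numbered 2, and 2 of Epha3, at 10.07 and 10.34 and at 9.14 and 8.92. No guidance probe set was at the floor on both arrays of 1 region and above the filter level on both arrays of the other, a pattern that 14 probe sets showed in the synaptic and 6 in the non-synaptic direction.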
